A study of Mus musculus with 30 samples.

Results

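The genes described here are 49 mouse genes that act in S phase, in G2 and mitosis, or at the G1 control point of the cell cycle. They were chosen by name, and a listed gene was used if at least 10 raw counts lay in 5 or more libraries. All 49 listed genes met this rule, out of 55573 genes in the count table, and all 49 were among the 11718 genes tested. The study sequenced RNA of CD8+ T cells from lymph nodes and spleen of C57BL/6 mice, 8 weeks old, which were naive when sorted with magnetic beads. The cells then grew without serum for 3 days on bound antibodies to CD3 and CD28, each at 5 µg/ml, which stand in for antigen and co-stimulation. The 6 groups had 5 libraries each: Furin knockout (KO) with TGFB1 at 0.5 ng/ml, wild type (WT) with TGFB1, KO with IL12 at 10 ng/ml, WT with IL12, KO without added cytokine and WT without added cytokine. All groups therefore share the C57BL/6 background, the antibodies and the medium. KO stands for libraries labelled as Furin knockout; the labels do not give the deleted part of Furin, the driver of a Cre or the number of cells per culture. The KO samples carried the numbers 63, 68, 70, 73 and 74 in every condition and the WT samples 62, 67, 71, 72 and 75, with number 63 the male KO sample and number 62 the male WT sample. The labels do not say that a number is an animal, and p values measure only the spread between these libraries.

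A naive T cell rests outside the cell cycle, and stimulation through CD3 and CD28 drives it through G1 and into repeated divisions. In G1, cyclins D and E activate kinases that inactivate the retinoblastoma protein and release E2F factors, which turn on genes of DNA synthesis. Later, complexes bound at paired CHR and CCAAT promoter elements turn on the genes of mitosis. TGFB1 is known to restrain T cell division partly through kinase inhibitors, IL12 drives effector differentiation, and Furin is a protease that cleaves precursor proteins, the TGFB1 precursor among them.

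Of the 49 genes, 18 serve S phase. Mcm2, Mcm3, Mcm4, Mcm5, Mcm6 and Mcm7 form the ring of the replicative helicase, Cdc6 and Cdt1 load it, and Cdc45 and Gins2 activate it. Pcna is the sliding clamp of DNA polymerases, Rrm1 and Rrm2 are ribonucleotide reductase subunits, Tyms makes thymidylate, and Ung removes uracil from DNA. Slbp binds histone mRNA, Uhrf1 maintains DNA methylation, and E2f1 is the transcription factor of the G1 to S step. Another 24 genes serve G2 and mitosis (G2/M). Cdk1 is the mitotic kinase and Ccnb1, Ccnb2 and Ccna2 are its cyclins. Plk1, Aurka and Aurkb are further mitotic kinases, and Birc5 (survivin) works in a complex with Aurkb. Bub1, Bub1b and Ttk run the spindle checkpoint, and Cdc20 and Ube2c act in the degradation of mitotic proteins. Cenpe and Cenpf sit at the kinetochore, Kif11, Kif20a and Kif23 are motor proteins, and Tpx2, Nusap1, Dlgap5 and Hmmr bind spindle microtubules. Top2a untangles DNA, and Mki67 coats mitotic chromosomes. The remaining 7 are G1 regulators: the cyclins Ccnd2, Ccnd3, Ccne1 and Ccne2 and the kinase inhibitors Cdkn1a (p21), Cdkn1b (p27) and Cdkn2c (p18).

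Library totals ran from 7306151 to 15502443 counts. Expression is given as CPM, counts-per-million of the TMM-scaled library total. Furin itself had 65.96 to 90.2 CPM in KO and 73.9 to 93.2 CPM in WT libraries with TGFB1, 120.0 to 464 CPM in KO and 161 to 533 CPM in WT libraries with IL12, and 31.5 to 33.9 CPM in KO and 28.8 to 38.5 CPM in WT libraries without cytokine. The ranges overlapped in each condition. Counts over the whole gene cannot check a deletion whose extent the labels do not give, so the genotype labels were not checked by expression. Cd8a and Cd8b1 summed to between 588 and 1990.0 CPM and Cd4 and Zbtb7b to between 9.81 and 26.7 CPM. Nearly all of the latter sum was Zbtb7b, with Cd4 at most 2.37 CPM. The summed markers of myeloid cells reached at most 8.58 CPM, of dendritic cells 5.19 CPM and of natural killer cells 2.42 CPM, and those of B cells at most 18.7 CPM, nearly all of it Cd79b. Stromal and endothelial markers summed to between 7.55 and 81.5 CPM, nearly all of it Pecam1. In bulk RNA, fewer cells in a phase and less of the RNA per cell cannot be told apart. A pair of features of the libraries matter below. With TGFB1, WT library 62 lay with the KO libraries for many of these genes, so values are given with and without it. With IL12, the share of counts in ribosomal protein genes was 7.64% to 8.74% in KO libraries and 8.58% to 11.6% in WT libraries, highest in WT libraries 72 and 75.

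Promoter sequences show how the genes of the 2 phases differ. RefSeq windows of 300 bases (250 before to 50 after the start, GRCm38.p6) were found for 40 of the 49 genes, 45 windows in all. The start is the one in RefSeq, and some windows lie wholly inside the gene as annotated in GENCODE. Those of Cdc6, E2f1 and Mcm7 are among them, and they count in the shares below. Both strands were searched for the CHR element (TTTGAA or TTCGAA), the CCAAT box (CCAAT) and E2F sites (TTTCGCGC, TTTCCCGC or TTTGGCGC), where TTTCGCGC and TTTGGCGC can overlap on opposite strands. The pair of CHR and CCAAT was present in 78.9% of the 19 G2/M windows, 16.7% of the 18 S phase windows and 0 of 8 G1 windows, against 7.52% of all 32851 windows and 5.91% of the 11200 windows of genes tested. An E2F match was present in 38.9% of S phase windows, 5.26% of G2/M windows and 0 of 8 G1 windows, against 1.84% of all windows and 3.74% of those of genes tested. The CCAAT box alone was in 89.5% of G2/M, 72.2% of S phase and 37.5% of G1 windows, against 37.4% of all windows. These shares describe the letters, not factor binding. Of the G2/M windows, the CHR and CCAAT pair was in 7 of 8 belonging to genes that were lower in KO than in WT libraries with TGFB1, and in 8 of 11 belonging to the others.

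Below, 4 windows are printed 5′ to 3′ for genes whose values matter in the comparisons: Ccnb2 (chr9:70421505-70421804, minus strand) and Cdc20 (chr4:118437294-118437593, minus strand) of mitosis, and Mcm6 (chr1:128359656-128359955, minus strand) and Cdc6 (chr11:98907901-98908200, plus strand) of S phase, all in GRCm38.p6. The Cdc6 window lies inside the gene, whose span in GENCODE begins at 98907801. Capitals mark CHR, CCAAT and E2F matches on either strand. Thus TTTGAA and CCAAT stand out in Ccnb2 and Cdc20, ATTGG (the CCAAT box on the other strand) and overlapping E2F letters in Mcm6, and 1 reversed E2F site in Cdc6.
Ccnb2: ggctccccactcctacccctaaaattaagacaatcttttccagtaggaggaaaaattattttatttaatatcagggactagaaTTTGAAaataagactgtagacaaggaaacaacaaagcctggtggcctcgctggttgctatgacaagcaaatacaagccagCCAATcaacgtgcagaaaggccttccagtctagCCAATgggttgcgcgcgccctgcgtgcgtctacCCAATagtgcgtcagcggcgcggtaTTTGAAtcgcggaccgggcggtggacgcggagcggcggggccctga
Cdc20: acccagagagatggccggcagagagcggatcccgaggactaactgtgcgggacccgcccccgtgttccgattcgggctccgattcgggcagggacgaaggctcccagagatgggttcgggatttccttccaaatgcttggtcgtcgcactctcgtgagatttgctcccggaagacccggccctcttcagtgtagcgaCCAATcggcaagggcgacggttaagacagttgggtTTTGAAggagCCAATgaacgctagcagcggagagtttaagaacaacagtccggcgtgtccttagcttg
Mcm6: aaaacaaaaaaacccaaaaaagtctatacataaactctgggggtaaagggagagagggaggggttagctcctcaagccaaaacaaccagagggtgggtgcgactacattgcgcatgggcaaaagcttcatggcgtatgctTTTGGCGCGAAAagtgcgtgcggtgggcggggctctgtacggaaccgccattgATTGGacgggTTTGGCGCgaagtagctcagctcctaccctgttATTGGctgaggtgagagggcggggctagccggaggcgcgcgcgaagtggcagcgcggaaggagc
Cdc6: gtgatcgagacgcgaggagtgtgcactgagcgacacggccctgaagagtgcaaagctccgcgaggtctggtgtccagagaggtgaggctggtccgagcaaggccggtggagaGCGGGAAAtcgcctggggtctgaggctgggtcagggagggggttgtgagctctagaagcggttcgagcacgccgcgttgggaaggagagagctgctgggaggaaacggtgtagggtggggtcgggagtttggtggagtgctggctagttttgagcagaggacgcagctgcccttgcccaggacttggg

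Per kilobase of exon, the S phase genes were led by Pcna in all 6 groups (group means of 260.5 to 300.1 CPM per kb), and in WT libraries without cytokine Rrm2 followed at 155 and Mcm6 at 148 CPM per kb. Ung was lowest of the S phase genes there, at 8.57 CPM per kb. Among G2/M genes in the same group, Top2a had 115 and Cdc20 had 106 CPM per kb, while Mki67 had 5.55, Cenpe 3.56 and Cenpf 1.41 CPM per kb. Of the long G2/M transcripts, Cenpf, Mki67 and Cenpe were low per kb and Top2a was not. Across the 24 G2/M genes, level per kb and exonic length had a Spearman rho between -0.747 and -0.711 over the 6 groups, a description of genes that share libraries and the counting step. The spread between libraries also differed by gene: in WT libraries without cytokine the coefficient of variation was 2.45% for Mcm6, 2.46% for Pcna, 24.4% for Mki67 and 31.5% for Cdkn1b.

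The summed level of the 24 G2/M genes was 4019 ± 259 CPM in KO and 4694 ± 637 CPM in WT libraries with TGFB1, 3420 ± 178 CPM in KO and 3715 ± 317 CPM in WT libraries with IL12, and 3946 ± 213 CPM in KO and 4337 ± 214 CPM in WT libraries without cytokine (SD, n = 5 each). For the 18 S phase genes the sums were 5662 ± 124 CPM in KO and 5607 ± 193 CPM in WT with TGFB1, 5390 ± 279 CPM in KO and 5536 ± 398 CPM in WT with IL12, and 6022 ± 136 CPM in KO and 6186 ± 104 CPM in WT without cytokine. The S phase sum was therefore lower on average with either cytokine in both genotypes, while the G2/M sum was lowest with IL12. The ratio of the G2/M sum to the S phase sum was 0.71 ± 0.052 in KO and 0.836 ± 0.1 in WT libraries with TGFB1. Within WT it was 0.861, 0.952, 0.798 and 0.884 in libraries 67, 71, 72 and 75 and 0.686 in library 62, against 0.677 to 0.802 in KO libraries. No test was made on these sums, since they add up chosen genes.

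**Figure D1:**
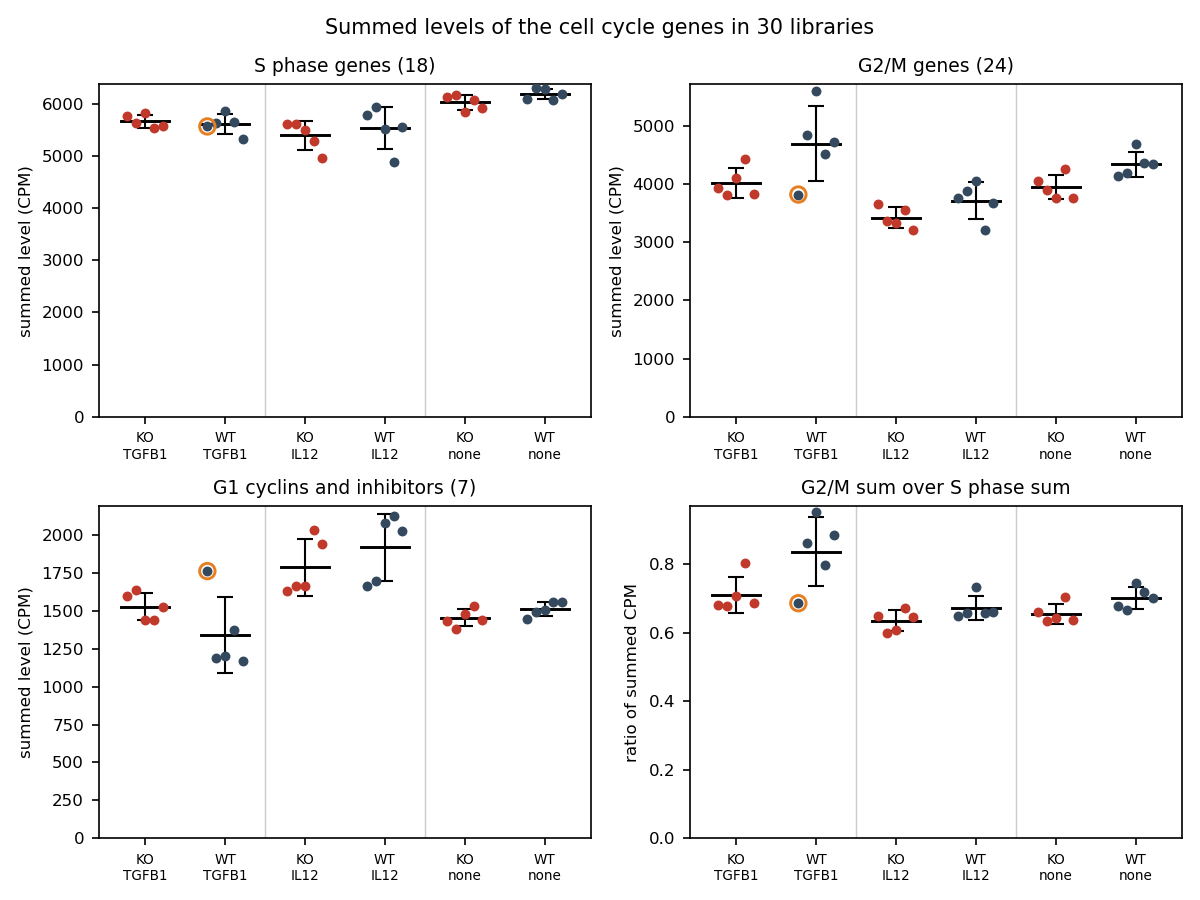
Summed CPM of the G2/M, S phase and G1 genes in each library (points), with the mean ± SD of each group of 5 (black bars) and WT library 62 with TGFB1 ringed in orange. The G2/M sum of WT library 62 with TGFB1 (3818 CPM) lies among the KO libraries (3811 to 4433 CPM), below the other WT libraries (4511 to 5589 CPM).

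With TGFB1, 10 of the 24 G2/M genes were lower in KO than in WT cells and 14 were not called, 2 of the 18 S phase genes were called, and among the G1 inhibitors Cdkn1a was higher and Cdkn2c and Cdkn1b lower. Of the 49 genes 4 were called higher and 13 lower in KO (edgeR quasi-likelihood test, Benjamini-Hochberg adjusted p below 0.05 over all genes), where 18.3% of all genes tested were called higher and 17.3% lower. The 17 calls are 34.7% of the 49 genes, near the 35.6% called among all genes. No G2/M gene was called higher, and the 24 had a median log2 fold change of -0.20 against -0.01 over all genes tested. Of the 18 S phase genes 1 was higher and 1 lower (median 0.00), and of the 7 G1 regulators 3 were higher and 2 lower.

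Ccnb2 (ENSMUSG00000032218, chromosome 9 from 70407692 to 70421547 on the minus strand, GRCm38) had 127, 109, 128, 149 and 100.3 CPM in KO libraries, against 126, 231, 264, 177 and 212 CPM in WT libraries; here and below, values run in the order 63, 68, 70, 73, 74 for KO and 62, 67, 71, 72, 75 for WT. WT library 62 lay inside the KO range and the other 4 WT libraries above all KO libraries. Its log2 fold change of KO over WT was -0.72 ± 0.13 (SE, adjusted p = 0.000393). Cenpf (ENSMUSG00000026605, chromosome 1 from 189640606 to 189688086 on the minus strand) had 13.8, 17.1, 18.8, 29.1 and 15.8 CPM in KO libraries, against 20.1, 37.5, 40.7, 24 and 45.9 CPM in WT libraries. WT libraries 62 and 72 lay inside the KO range and the other 3 above it, and Cenpf fell by 0.82 ± 0.21 on the log2 scale (SE, adjusted p = 0.00333). Birc5 (ENSMUSG00000017716, chromosome 11 from 117849251 to 117855743 on the plus strand) had 124, 124, 128, 145 and 112 CPM in KO libraries, against 145, 205, 217, 158 and 173 CPM in WT libraries. The groups did not overlap, but KO library 73 and WT library 62 were almost level, and the log2 change was -0.50 ± 0.09 (SE, adjusted p = 0.000253). Bub1b had 167, 157, 180.1, 188 and 142 CPM in KO libraries, against 148, 258, 268, 209 and 266 CPM in WT libraries. Again 4 WT libraries stood above all KO libraries and library 62 did not, with a log2 change of -0.46 ± 0.13 (SE, adjusted p = 0.00755).

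Dlgap5 had 72.1, 67.6, 75.5, 81.8 and 57.5 CPM in KO libraries, against 83.8, 92.8, 104, 93.8 and 88.8 CPM in WT libraries. Every KO library was below every WT library, and the log2 fold change was -0.39. The other lower G2/M genes were the motor genes Kif20a (-0.38), Kif11 (-0.37) and Kif23 (-0.33) and the degradation factors Cdc20 (-0.24) and Ube2c (-0.22), as log2 fold changes. Cdc20 had 214, 202, 201, 240.2 and 200.3 CPM in KO libraries, against 214, 249, 299, 241 and 246 CPM in WT libraries, with 4 WT libraries above the highest KO library and library 62 inside the KO range. The call was lost without WT library 71 for Cdc20 (-0.16) and Kif11 (-0.29), and without KO library 63 or 68 or WT library 71 for Ube2c (-0.14 without WT 71).

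Other mitotic genes did not pass the test. Top2a had 939, 904, 1006, 1033 and 910.3 CPM in KO libraries, against 878, 1090.0, 1261, 1031 and 1035 CPM in WT libraries, with a log2 fold change of -0.14. Plk1 had 161, 157, 169, 179 and 162 CPM in KO libraries, against 155, 194, 213, 185 and 190.1 CPM in WT libraries (-0.18). For both, WT library 62 was the lowest of its group, and the ranges overlapped. Ccnb1, the sister cyclin of Ccnb2, had 116, 129, 128, 126 and 149 CPM in KO libraries, against 111, 130.0, 152, 129.5 and 119 CPM in WT libraries, a log2 fold change of 0.01 ± 0.07 (SE), and the difference between the B cyclins was not tested. Mki67 had 51.1, 59.4, 83.5, 109 and 62.6 CPM in KO libraries, against 49.95, 56.2, 120.5, 64.6 and 95.1 CPM in WT libraries. Its spread within each group was wide, and the log2 fold change was -0.08 ± 0.34 (SE).

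Among S phase genes, Cdc6 (ENSMUSG00000017499, chromosome 11 from 98907801 to 98923940 on the plus strand) had 92.7, 97.6, 92.9, 92.3 and 100.5 CPM in KO libraries, against 98.6, 70.2, 84.7, 84.3 and 77.5 CPM in WT libraries. The KO libraries were close together, WT library 62 was among them and the other 4 WT libraries were below, giving a rise of 0.20 ± 0.07 (SE, adjusted p = 0.0297) on the log2 scale. Slbp had 158, 154, 155, 164 and 142 CPM in KO libraries, against 177, 177, 179, 164 and 166 CPM in WT libraries and fell by 0.16 ± 0.06 on the log2 scale (SE, adjusted p = 0.0473). Both calls were narrow. The Cdc6 call was lost without KO library 68 or 74 or WT library 67 or 75 (0.14 to 0.19), and the Slbp call without KO library 68, 70 or 74 or WT library 62, 67 or 71 (-0.16 to -0.14). The helicase subunit Mcm5 had 469, 450.5, 488, 456 and 433 CPM in KO libraries, against 436, 549.7, 562, 467 and 537 CPM in WT libraries, with overlapping ranges. The clamp gene Pcna had 707, 666, 689, 663 and 672 CPM in KO libraries, against 642, 631, 699.7, 689.5 and 581 CPM in WT libraries, and the ranges overlapped too. Rrm2 had 391.8, 442, 412, 372 and 446 CPM in KO libraries, against 382, 348, 434, 416 and 353 CPM in WT libraries. E2f1 had 33.9, 35.4, 30.1, 31.6 and 37.5 CPM in KO libraries, against 43.2, 32.8, 33.98, 33.96 and 35.8 CPM in WT libraries. None of these 4 was called, with log2 fold changes of -0.15, 0.07, 0.09 and -0.09.

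The G1 regulators had the largest fold changes of either sign. Cdkn2c (ENSMUSG00000028551, chromosome 4 from 109660876 to 109667189 on the minus strand), an inhibitor of Cdk4 and Cdk6, had 38.3, 27.8, 37.1, 41.6 and 20.7 CPM in KO libraries, against 40.5, 79.4, 83.6, 52.6 and 67.5 CPM in WT libraries. WT library 62 lay in the KO range and the other WT libraries above it, a log2 change of -0.97 ± 0.19 (SE, adjusted p = 0.000553). Cdkn1b (ENSMUSG00000003031, chromosome 6 from 134920401 to 134925513 on the plus strand) had 83.8, 50.9, 76.4, 102 and 58.5 CPM in KO libraries, against 60.3, 114, 155, 105 and 121 CPM in WT libraries, with the same arrangement, and fell by 0.58 ± 0.21 on the log2 scale (SE, adjusted p = 0.0318). Cdkn1a (ENSMUSG00000023067, chromosome 17 from 29090976 to 29100727 on the plus strand), by contrast, had 330.2, 356, 276, 239 and 347 CPM in KO libraries, against 371, 96.9, 86.2, 208 and 109.9 CPM in WT libraries. WT library 62 was the highest of all 10 and the other 4 WT libraries were below every KO library. It rose by 0.83 ± 0.26 (SE, adjusted p = 0.0133) on the log2 scale.

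Ccne2 had 61.97, 63.4, 55.9, 67.3 and 86.5 CPM in KO libraries, against 63.7, 41.4, 48.9, 56.2 and 44.6 CPM in WT libraries and rose by 0.40 ± 0.13 (SE, adjusted p = 0.0185). Ccnd2 had 685, 771, 631, 615 and 628 CPM in KO libraries, against 759, 502, 479.7, 560.2 and 449.6 CPM in WT libraries, with 4 WT libraries below all KO libraries, and rose by 0.28 on the log2 scale. Ccne1 had 142, 147, 132, 133 and 146 CPM in KO libraries, against 158, 103, 105, 129 and 109 CPM in WT libraries. It was not called (log2 fold change 0.21, edgeR adjusted p = 0.0566), and WT library 62 was its highest library. Ccnd3 had 254, 224, 232, 243 and 237 CPM in KO libraries, against 309.8, 251, 246, 261 and 268 CPM in WT libraries and was not called either (-0.17). Several of these calls were lost when 1 library was left out. Cdkn1b was not called without KO library 68 or 74 or WT library 67, 71 or 75 (-0.58 to -0.43), Ccne2 not without KO library 74 or WT library 67 or 75 (0.28 to 0.35), Ccnd2 not without KO library 63 or 68 or WT library 67, 71 or 75 (0.21 at the lowest), and Cdkn1a not without WT library 71 (0.66).

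**Figure D2:**
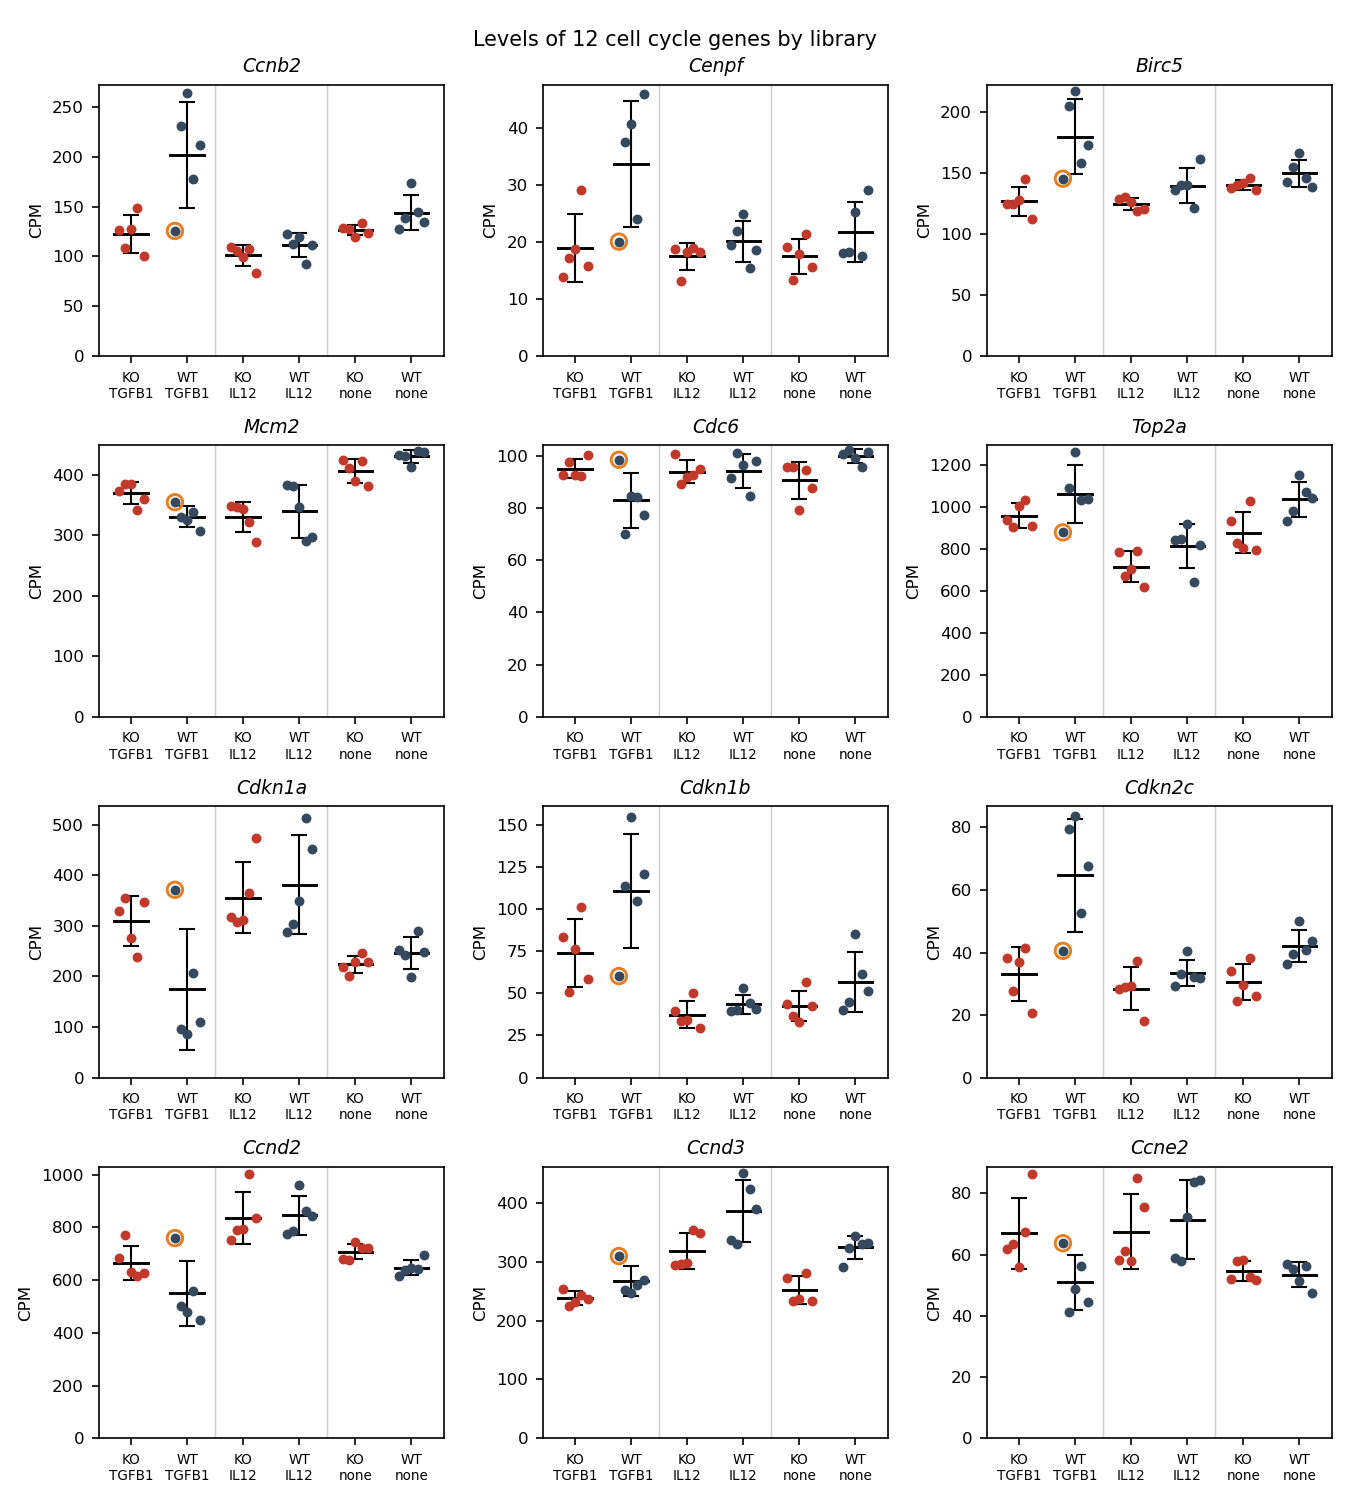
CPM by library for selected members in the 6 groups (points), with the mean ± SD of each group of 5 (black bars) and WT library 62 with TGFB1 ringed in orange. For Cdkn1a with TGFB1, that library has 371 CPM and the other 4 WT libraries 86.2 to 208 CPM, against 239 to 356 CPM in KO.

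Without WT library 62, 24 of the 49 genes were called, 6 higher and 18 lower, against a background of 45.4% of all genes. The added genes were Mcm2 and Ccne1 among the higher and Mcm5, Mcm7, Ccna2, Plk1, Tpx2 and Nusap1 among the lower, and Slbp was lost. The log2 fold change was then -0.85 for Ccnb2, -0.96 for Cenpf, -1.10 for Cdkn2c and 1.31 for Cdkn1a, which is over 1.5 times its value with that library. Without WT library 71, 10 genes were called, 7 of them of G2/M. With the TGFB1 groups fitted alone, 9 were called, all lower: Ccnb2, Birc5, Bub1b, Cenpf, Kif11, Kif20a, Kif23, Dlgap5 and Cdkn2c. For the fit without library 71 and the fit of the TGFB1 groups alone, the share of all genes called is not given here. The T cell markers moved in the same way. Their sum was 3827 to 4702 CPM in KO and 4271 to 5972 CPM in WT libraries, with library 62 the lowest WT library. In KO, 7 of 12 T cell markers and both CD8 markers were lower, where 17.3% of all genes tested were called lower. The part of this in the result was not tested.

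**Figure D3:**
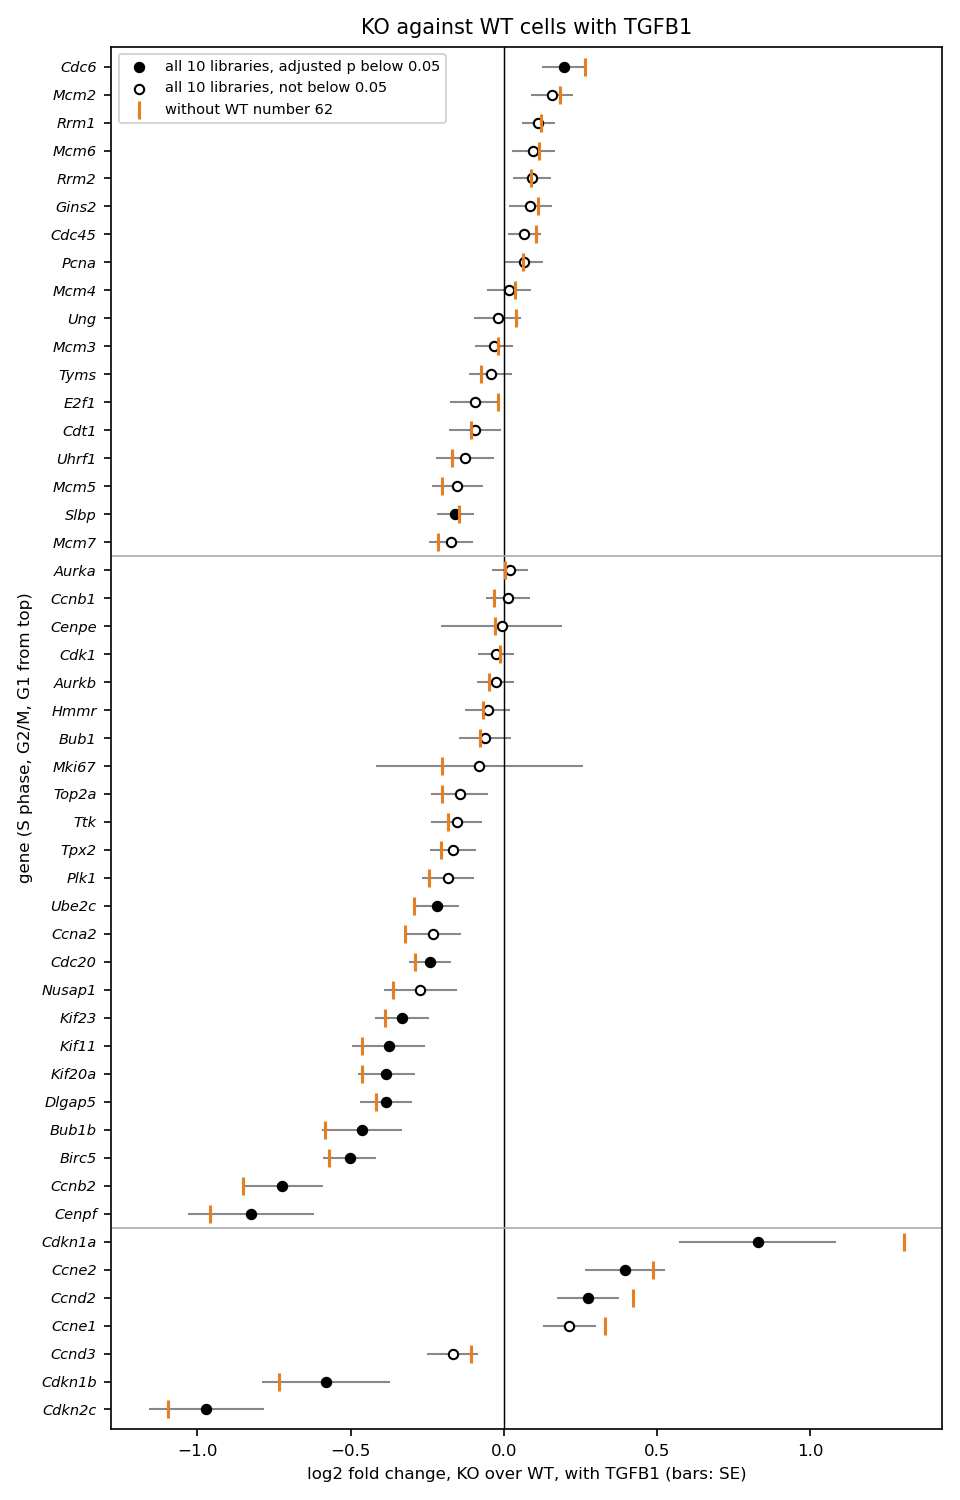
Log2 fold change of KO over WT with TGFB1 for each member (point, with SE as bars), filled where the adjusted p was below 0.05. The orange tick gives the value without WT library 62, which lies farther from 0 for Ccnb2, Cdkn2c and Cdkn1a.

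Cell cycle genes outside the 49 were read from lists that were, like the 49, chosen with earlier results known. Their counts stand against the 18.3% of all genes tested that were called higher and the 17.3% called lower. With TGFB1, 2 of 42 other G2/M genes were higher and 22 lower in KO than in WT. The lower ones include Aspm (-0.74), a spindle pole protein, and Smc4 (-0.68), a condensin subunit, and the 2 higher ones were Gtse1 (0.33) and Mybl2 (0.33), as log2 fold changes. Of 36 other S phase genes 7 were higher, among them the origin protein Orc1 (0.62), and 3 lower, among them DNA ligase Lig1 (-0.32). Of 25 tested G1 control and quiescence genes 6 were higher, led by Cdk6 (0.86) and Myc (0.75), and 10 lower, led by Btg2 (-1.23). Of 14 p53 target genes, which like Cdkn1a can be turned on by p53, 6 were higher, with Aen (0.69) and Ccng1 (0.57) the largest. The 2 lower ones were Btg2 (-1.23), the same gene as in the G1 control list, and Sesn1 (-0.64).

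With IL12, 0 of the 49 genes were higher and 3 lower in KO than in WT, where 2.76% of all genes tested were called higher and 4.01% lower. The 3 were Dlgap5, Pcna and Ccnd3, 1 from each list. Of the 24 G2/M genes 22 had a negative log2 fold change, with a median of -0.14, against -0.05 over the S phase genes and 0.00 over all genes tested. Dlgap5 had 73.3, 61.7, 61.7, 64.5 and 66.1 CPM in KO libraries, against 69.3, 82.3, 90.8, 79.2 and 97.5 CPM in WT libraries. Only WT library 62 lay in the KO range, and the log2 change was -0.36 ± 0.08 (SE, adjusted p = 0.0127). Pcna had 619.5, 644, 628, 606 and 628 CPM in KO libraries, against 641, 683, 680.0, 719 and 879 CPM in WT libraries. WT library 75 was far above the rest, and library 62 was inside the KO range. Pcna fell by 0.20 ± 0.06 on the log2 scale (SE, adjusted p = 0.0432). Ccnd3 had 295, 296, 297, 354 and 349 CPM in KO libraries, against 337, 330.2, 450.3, 424 and 389.6 CPM in WT libraries, with 3 WT libraries above all KO libraries, a log2 change of -0.28 ± 0.08 (SE, adjusted p = 0.0407).

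None of these calls held without WT library 75. Dlgap5 was otherwise called without each other library (-0.30 without WT 75). Pcna was called in 3 of 10 fits with a library left out, lost without any of the 5 KO libraries or WT library 72 or 75 (-0.22 to -0.12), and Ccnd3 was lost without KO library 63, 68 or 70 or WT library 71, 72 or 75 (-0.27 to -0.22). With the IL12 groups fitted alone 0 genes were called, and without the filter on low counts 1. Counts ran to 5 without WT library 62, where Cdk1 and Aurka joined. For all alternative fits of this comparison, the share of all genes called is not given here, so the counts are not set against it. Only Dlgap5 was called without KO library 63, 68 or 70 or WT library 72, 0 genes without WT library 75, and 0 without WT libraries 72 and 75, an alternative added after the values were seen. In those libraries the share of ribosomal protein counts was highest, as given above; its part was not tested.

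The other members named by library overlapped between genotypes with IL12. Top2a had 783, 671, 705, 791 and 618 CPM in KO libraries, against 840.0, 849, 918, 639.8 and 819.5 CPM in WT libraries. Plk1 had 171, 165, 163, 152 and 156 CPM in KO libraries, against 185, 179.9, 189, 137 and 133 CPM in WT libraries. Ccnb1 had 126, 128, 120.3, 130.3 and 128 CPM in KO libraries, against 122, 131, 119.9, 120.4 and 139 CPM in WT libraries. Of these, Ccnb1 hardly varied, while WT libraries 72 and 75 were the lowest of all 10 for Plk1. Mki67 had 80.5, 26.2, 28.9, 37.2 and 111 CPM in KO libraries, against 34.02, 104, 97.5, 80.1 and 85.05 CPM in WT libraries and spread widely in both groups. Mcm5 had 470.1, 508, 505, 405 and 407 CPM in KO libraries, against 482, 487, 434, 342 and 419 CPM in WT libraries. It is again WT library 72 that was lowest. Rrm2 had 449.8, 432, 414, 447 and 439.6 CPM in KO libraries, against 452, 465, 466, 422 and 512 CPM in WT libraries. E2f1 had 37.2, 35.5, 37.5, 32.3 and 31.3 CPM in KO libraries, against 34.8, 35.1, 36.2, 30.8 and 33.4 CPM in WT libraries. Neither was called. Among G1 regulators, Ccne1 had 143, 144, 137, 144 and 157 CPM in KO libraries, against 135, 148, 151, 166 and 182 CPM in WT libraries. Ccnd2 had 752, 791, 793, 1001 and 836 CPM in KO libraries, against 773, 785, 960.3, 864 and 844 CPM in WT libraries. Both cyclins had overlapping groups. Cdkn1a had 318, 307, 312, 364 and 475 CPM in KO libraries, against 288, 304, 349, 514 and 452 CPM in WT libraries, highest in KO library 74 and WT libraries 72 and 75. Cdkn1b had 39.4, 33.5, 34.2, 50.2 and 29.2 CPM in KO libraries, against 39.8, 39.9, 53.3, 44.4 and 40.5 CPM in WT libraries. Cdkn2c had 28.3, 28.9, 29.4, 37.4 and 17.96 CPM in KO libraries, against 29.2, 33.1, 40.5, 32.2 and 31.8 CPM in WT libraries. None of the 3 inhibitors was called (log2 fold changes -0.10, -0.23 and -0.23).

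Without added cytokine 0 of the 49 genes were higher and 1 lower in KO than in WT, where 1.08% of all genes tested were called higher and 1.02% lower. That gene was Ccnd3 (ENSMUSG00000034165, chromosome 17 from 47505051 to 47599691 on the plus strand), a D cyclin of lymphocytes. It had 273, 234, 236, 282 and 233 CPM in KO libraries, against 291, 323, 345, 331 and 332 CPM in WT libraries. Every KO library was below every WT library, with a log2 change of -0.37 ± 0.08 (SE, adjusted p = 0.0227). The call was lost without KO library 68, 70 or 74 or WT library 71, 72 or 75 (-0.36 to -0.34). No S phase or G2/M gene was called by edgeR or by DESeq2, with an unadjusted p below 0.05 in edgeR for 2 S phase and 6 G2/M genes, against 2193 of all 11718 genes tested, and 21 of the 24 G2/M genes had a negative value (median -0.13). The G2/M gene with the smallest p was Dlgap5, with 77.6, 72.6, 72.4, 77.1 and 69.7 CPM in KO libraries, against 83.4, 90.4, 95.8, 87.2 and 86.3 CPM in WT libraries. The KO libraries were all below the WT libraries, but the log2 fold change of -0.26 did not pass (edgeR adjusted p = 0.0948). With the cytokine-free groups fitted alone, Cdt1, Kif23, Dlgap5 and Cdkn2c joined Ccnd3, and without KO library 73 Bub1 did. How many of all genes were called in those fits is not given here.

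Without cytokine the levels varied less between libraries. Top2a had 934, 826, 806, 1026 and 795 CPM in KO libraries, against 934, 981, 1152, 1069 and 1042 CPM in WT libraries. Plk1 had 179, 195, 167, 191 and 179 CPM in KO libraries, against 190.3, 176, 198, 182 and 192 CPM in WT libraries. Ccnb1 had 126, 129, 127, 118 and 144 CPM in KO libraries, against 121, 134, 121, 127 and 123 CPM in WT libraries. For Top2a, the WT libraries other than 62 exceeded all KO libraries except 73. Mki67 had 38.2, 50.9, 37.1, 65.6 and 25.9 CPM in KO libraries, against 53.05, 57.9, 38.8, 53 and 76.5 CPM in WT libraries. Mcm5 had 529, 556, 501, 506 and 534 CPM in KO libraries, against 501, 539, 527, 473 and 529 CPM in WT libraries. Pcna had 676, 668, 632, 681 and 669.9 CPM in KO libraries, against 689, 689.6, 709, 693 and 662 CPM in WT libraries. The KO library with the lowest Pcna was 70. Rrm2 had 420.2, 444, 414, 411 and 407 CPM in KO libraries, against 442, 439, 408, 435 and 423 CPM in WT libraries. E2f1 had 32.4, 33.9, 32.9, 34.4 and 34.96 CPM in KO libraries, against 36.1, 29.8, 32.4, 30.1 and 37.1 CPM in WT libraries. Both overlapped between genotypes. Ccne1 had 136, 151, 146, 139.7 and 141 CPM in KO libraries, against 152, 148, 130.5, 138 and 142 CPM in WT libraries. Ccnd2 had 678, 677, 745, 720.1 and 720.1 CPM in KO libraries, against 616, 637, 645, 641 and 694 CPM in WT libraries. WT library 75 was the one WT library inside the KO range of Ccnd2, and Ccnd2 was not called (0.13). Cdkn1a had 218, 200.2, 228, 246 and 228 CPM in KO libraries, against 253, 242, 199, 289 and 248 CPM in WT libraries. Cdkn1b had 43.9, 36.4, 32.99, 56.8 and 42.5 CPM in KO libraries, against 40.1, 44.6, 85.04, 61.4 and 51.6 CPM in WT libraries. Cdkn2c had 34.2, 24.5, 29.7, 38.2 and 26.1 CPM in KO libraries, against 36.5, 39.7, 50.1, 40.7 and 43.6 CPM in WT libraries. For Cdkn2c 4 WT libraries lay above all KO libraries, while its log2 fold change of -0.46 was not called (edgeR adjusted p = 0.186).

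**Figure D4:**
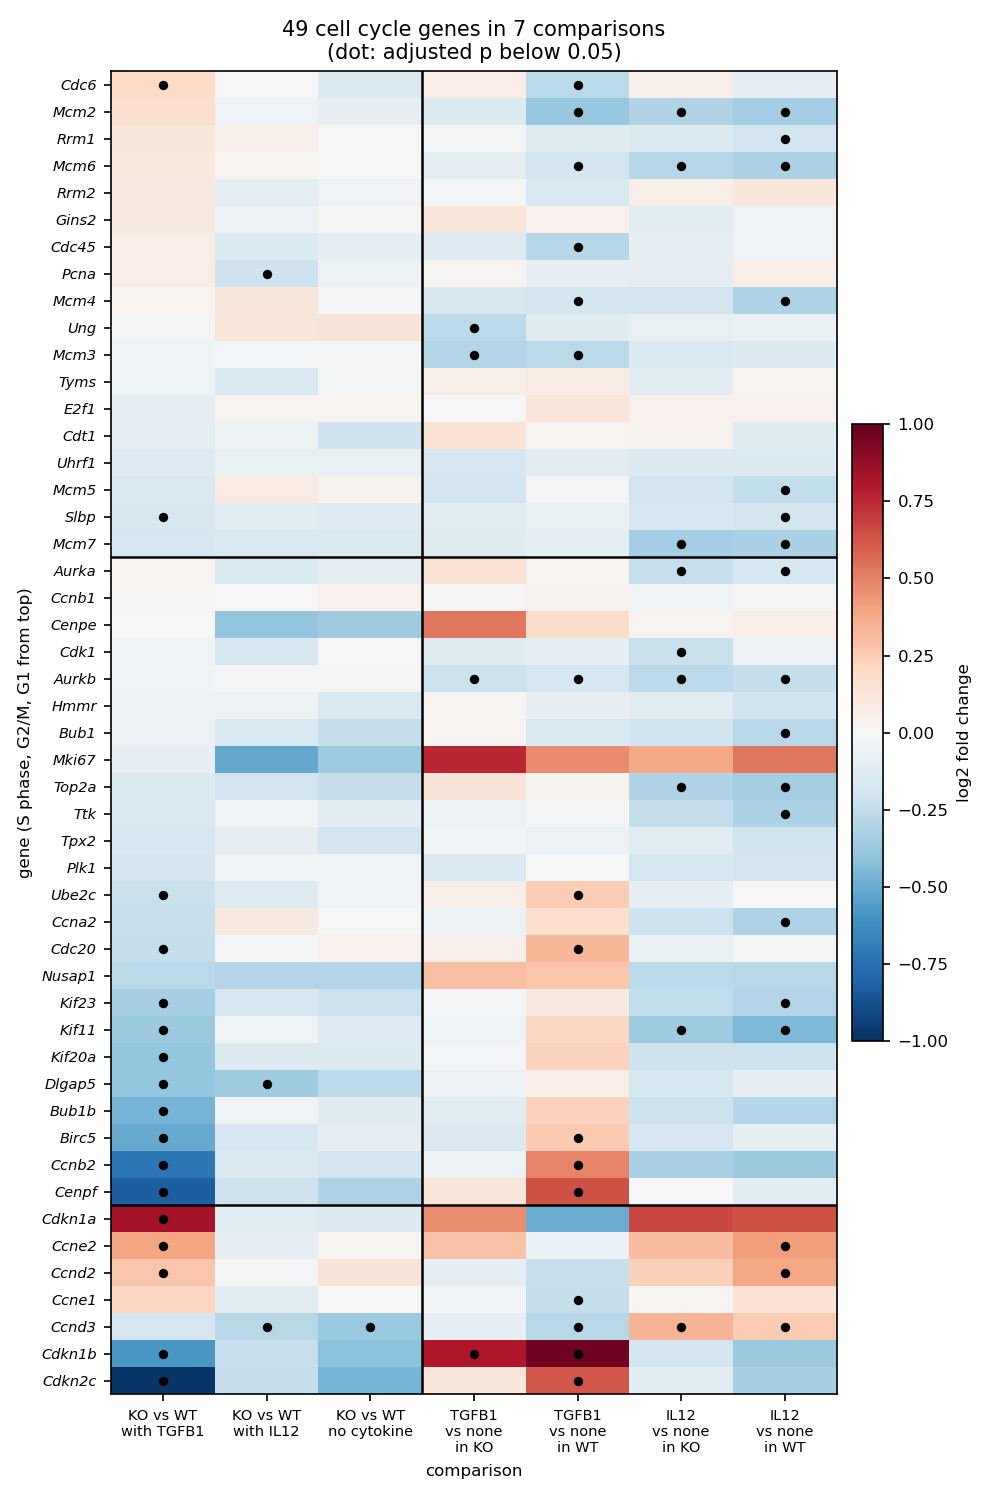
Log2 fold change of each of the 49 members (rows, by list) in the comparisons (columns); a dot marks an adjusted p below 0.05. With TGFB1 the KO against WT column holds 10 dots among G2/M genes and 2 among S phase genes, and without cytokine it holds 1, at Ccnd3.

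In KO cells TGFB1 against no cytokine gave 1 higher and 3 lower genes, where 13.5% of all genes tested were called higher and 11% lower. With the compared groups fitted alone 12 genes were called, and with a trend in gene length removed 9. These shares are of the main fit, and those of the other fits are not given here. Cdkn1b had 83.8, 50.9, 76.4, 102 and 58.5 CPM with TGFB1, against 43.9, 36.4, 32.99, 56.8 and 42.5 CPM without added cytokine. KO library 68 with TGFB1 lay inside the range without cytokine and the other 4 above it, and Cdkn1b rose by 0.80 ± 0.21 (SE, adjusted p = 0.00662) on the log2 scale. Mcm3 had 477, 444, 477, 442 and 406 CPM with TGFB1, against 554, 574, 532, 544 and 543 CPM without added cytokine. All libraries with TGFB1 were lower, a log2 change of -0.29 ± 0.06 (SE, adjusted p = 0.000955). Ung had 46.1, 44.1, 43.2, 37.8 and 42.1 CPM with TGFB1, against 54.2, 51.03, 49.8, 52.8 and 48.5 CPM without added cytokine, also without overlap (-0.27 ± 0.08 (SE, adjusted p = 0.0112)), and its call was lost without KO library 73 with TGFB1 (-0.22). Aurkb had 139.8, 137, 136, 145 and 136 CPM with TGFB1, against 167, 164, 153, 166 and 156 CPM without added cytokine, again all lower, with a log2 change of -0.22 ± 0.06 (SE, adjusted p = 0.00946).

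In WT cells TGFB1 against no cytokine gave 7 higher and 9 lower genes, where 19.2% of all genes tested were called higher and 18.6% lower. Of 18 S phase genes 0 were higher and 6 lower, and of 24 G2/M genes 5 were higher, a share near that of all genes, 1 was lower and 18 were not called. A difference between the 2 lists was not tested. Mcm2 (ENSMUSG00000002870, chromosome 6 from 88883474 to 88898780 on the minus strand) had 355, 329.6, 325, 338 and 308 CPM with TGFB1, against 432, 430.5, 412, 440.3 and 437 CPM without added cytokine. All libraries with TGFB1 were lower, a log2 change of -0.38 ± 0.07 (SE, adjusted p = 0.000144). Cdc45 had 121, 97.7, 106, 116 and 108 CPM with TGFB1, against 133, 132, 139.5, 130.5 and 135 CPM without added cytokine, also without overlap (-0.28 ± 0.05 (SE, adjusted p = 0.000195)). Mcm3 fell by 0.27 ± 0.06 (SE, adjusted p = 0.00136) and Cdc6 by 0.27 ± 0.07 (SE, adjusted p = 0.00396) on the log2 scale. Mcm4 and Mcm6 had -0.19 each, and both calls were lost in 7 of 10 fits with a library left out (WT libraries 62, 67, 71 or 75 without cytokine, or 71, 72 or 75 with TGFB1; -0.19 to -0.15).

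Of the G2/M genes in WT, Cdc20 (ENSMUSG00000006398, chromosome 4 from 118432901 to 118437352 on the minus strand) had 214, 249, 299, 241 and 246 CPM with TGFB1, against 196, 191, 208, 201 and 194 CPM without added cytokine. All libraries with TGFB1 were higher, and Cdc20 rose by 0.34 ± 0.07 (SE, adjusted p = 0.000496). Ccnb2 had 126, 231, 264, 177 and 212 CPM with TGFB1, against 128, 138, 174, 145 and 135 CPM without added cytokine. WT library 62 with TGFB1 was the lowest of the 10 and the other 4 lay above all libraries without cytokine, with a log2 change of 0.49 ± 0.13 (SE, adjusted p = 0.00463). Cenpf rose by 0.64 ± 0.20 (SE, adjusted p = 0.0155) and Birc5 by 0.26 ± 0.09 (SE, adjusted p = 0.0173). Ube2c rose by 0.25, and Aurkb fell by 0.18 on the log2 scale. The Cenpf call was lost without WT library 71 or 75 with TGFB1 (0.55 and 0.51), that of Birc5 without 67 or 71 (0.22 and 0.18), that of Ube2c without 71 (0.17), and that of Aurkb without WT library 62, 71 or 75 without cytokine or 67 or 72 with TGFB1 (-0.14 at the smallest).

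Among G1 regulators in WT, Cdkn1b had 60.3, 114, 155, 105 and 121 CPM with TGFB1, against 40.1, 44.6, 85.04, 61.4 and 51.6 CPM without added cytokine, with library 62 inside the range without cytokine and the others above it, and rose by 0.97 ± 0.21 (SE, adjusted p = 0.00083). Cdkn2c had 40.5, 79.4, 83.6, 52.6 and 67.5 CPM with TGFB1, against 36.5, 39.7, 50.1, 40.7 and 43.6 CPM without added cytokine, with the same arrangement, and rose by 0.62 ± 0.19 (SE, adjusted p = 0.00952). Ccnd3 fell by 0.28 ± 0.08 (SE, adjusted p = 0.0097), and Ccne1 by 0.24 ± 0.09 (SE, adjusted p = 0.0347). The call of Ccne1 was lost without WT library 62, 67 or 75 without cytokine or 67, 71 or 75 with TGFB1 (-0.24 to -0.18). Cdkn1a was not called (-0.50). Without WT library 62 with TGFB1, 23 genes were called, with Cdkn1a (-0.98), Ccnd2 (-0.38), Ccna2, Bub1b, Kif11, Kif20a and Nusap1 added, and without WT library 71 with TGFB1 11 were called. Shares of all genes called with a library left out are not given here for this comparison. In the other lists, TGFB1 in WT gave 1 higher and 15 lower of 36 S phase genes and 9 higher and 2 lower of 42 G2/M genes. Of all genes tested in WT, 19.2% were called higher and 18.6% lower, so the share of these G2/M genes called higher is near that of all genes. In KO, 0 S phase genes were higher and 5 lower, and 1 G2/M gene was higher and 1 lower. Of all genes tested in KO, 13.5% were called higher and 11% lower.

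With IL12 the summed level of the G2/M genes was the lowest of the 3 conditions in both genotypes, as given above, though single members such as Mki67 did not follow it (80.2 CPM with IL12 and 55.8 CPM without added cytokine on average in WT cells). In KO cells 1 gene was higher and 8 lower, where 8.49% of all genes tested were called higher and 5.74% lower, and in WT cells 3 were higher and 15 lower, where 10.5% were called higher and 8.3% lower. The IL12 and TGFB1 responses share their libraries without cytokine. Of the 24 G2/M genes 5 were lower in KO and 8 in WT, of the 18 S phase genes 3 in KO and 7 in WT, and 0 of either list were higher. The calls among G1 regulators were all higher. The G2/M median log2 fold change was -0.20 in KO and -0.20 in WT, against 0.00 and 0.01 over all genes tested.

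In KO cells, Mcm7 had 399, 413, 403, 387 and 342 CPM with IL12, against 495, 485, 481, 518 and 475 CPM without added cytokine. All libraries with IL12 were lower, a log2 change of -0.34 ± 0.07 (SE, adjusted p = 0.00202). Mcm2 fell by 0.30 ± 0.07 (SE, adjusted p = 0.00339), and Mcm6 by 0.29 ± 0.07 (SE, adjusted p = 0.00495). Aurkb had 139, 137, 136, 129 and 132 CPM with IL12, against 167, 164, 153, 166 and 156 CPM without added cytokine, again without overlap, a log2 change of -0.26 ± 0.06 (SE, adjusted p = 0.00373). Aurka followed with -0.23 ± 0.06 (SE, adjusted p = 0.00759), Top2a with -0.30 ± 0.09 (SE, adjusted p = 0.0312), Kif11 with -0.36 ± 0.12 (SE, adjusted p = 0.042) and Cdk1 with -0.22. The Kif11 call was lost without any of the 5 KO libraries without cytokine or without KO library 68, 70 or 74 with IL12 (-0.38 to -0.26). The Top2a call was lost without KO library 63 or 73 without cytokine or 68, 70 or 74 with IL12 (-0.29 to -0.24), and that of Cdk1 without KO library 74 with IL12 (-0.20). Ccnd3 had 295, 296, 297, 354 and 349 CPM with IL12, against 273, 234, 236, 282 and 233 CPM without added cytokine. All libraries with IL12 were higher, a rise of 0.34 ± 0.08 (SE, adjusted p = 0.00595). In this comparison 6 to 11 genes were called with 1 library left out, fewest without KO library 74 with IL12. The count depended on the fit: 5 were called without the filter on low counts, 20 with the compared groups fitted alone and 22 with a trend in gene length removed. For these fits the shares of all genes called are not given here, so the counts are not set against them.

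In WT cells, Mcm2 had 382, 382, 346, 291 and 297 CPM with IL12, against 432, 430.5, 412, 440.3 and 437 CPM without added cytokine. All libraries with IL12 were lower, and libraries 72 and 75 lowest, with a log2 change of -0.34 ± 0.07 (SE, adjusted p = 0.000841). Mcm7 had -0.33 ± 0.07 (SE, adjusted p = 0.0021), Mcm6 -0.32 ± 0.07 (SE, adjusted p = 0.00186) and Mcm4 -0.31 ± 0.07 (SE, adjusted p = 0.00335). Mcm5, Rrm1 and Slbp were also lower (-0.25, -0.19 and -0.18), and each of these calls was lost without WT library 72 with IL12 (-0.17, -0.16 and -0.13). That of Mcm5 was also lost without WT library 71 or 75 with IL12 or 62, 67, 71 or 75 free of cytokine, and that of Slbp without WT library 75 with IL12 or 71 or 72 free of cytokine. Among G2/M genes, Kif11 had 173, 182, 179, 121 and 147 CPM with IL12, against 201, 205, 250.4, 214 and 222 CPM without added cytokine. The ranges did not overlap, and Kif11 fell by 0.45 ± 0.12 on the log2 scale (SE, adjusted p = 0.00973). Top2a had 840.0, 849, 918, 639.8 and 819.5 CPM with IL12, against 934, 981, 1152, 1069 and 1042 CPM without added cytokine, also without overlap, a log2 change of -0.35 ± 0.09 (SE, adjusted p = 0.0101). Ttk had -0.31 ± 0.08 (SE, adjusted p = 0.00947) and Ccna2 -0.31 ± 0.09 (SE, adjusted p = 0.019). Kif23, Bub1, Aurkb and Aurka were lower by log2 fold changes between -0.29 and -0.18. The Aurka call was lost without WT library 62 or 72 with IL12 or 62, 71 or 72 free of cytokine (-0.17 to -0.14).

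For the G1 cyclins in WT, Ccne2 had 58.8, 57.9, 72.2, 83.7 and 84.5 CPM with IL12, against 57.05, 55.3, 51.4, 56.2 and 47.5 CPM without added cytokine. All libraries with IL12 were higher, and Ccne2 rose by 0.42 ± 0.13 (SE, adjusted p = 0.0235). Ccnd2 had 773, 785, 960.3, 864 and 844 CPM with IL12, against 616, 637, 645, 641 and 694 CPM without added cytokine, likewise, and rose by 0.39 ± 0.10 (SE, adjusted p = 0.00735). Ccnd3 rose by 0.25 ± 0.08 (SE, adjusted p = 0.0338) with overlapping ranges. Without WT library 72 with IL12, 8 genes were called, the fewest in this comparison with 1 library left out. In that fit Top2a (-0.27), Ccna2 (-0.25), Bub1 (-0.25), Kif23 (-0.23), Ccne2 (0.36) and Ccnd3 (0.22) were not called. Without WT library 71 free of cytokine 11 were called, with Ccna2, Bub1, Kif23 and Ccne2 lost. Without WT libraries 72 and 75 with IL12, an alternative added after the values were seen, only Mcm2 (-0.22) and Mcm7 (-0.27) were called. The shares of all genes called in these fits are not given here, so the counts are not set against them. Without WT library 75 with IL12 alone, Ccna2, Kif23, Ccne2 and Ccnd3 were lost. Ccne2 was also lost without WT library 75 free of cytokine (0.38), and Ccnd3 without WT library 62, 67, 72 or 75 free of cytokine or 71 with IL12 (0.20 at the lowest). The levels of ribosomal protein genes differed in the same libraries, as given above, and their part was not tested. In the other lists, IL12 gave 0 higher and 11 lower of 42 G2/M genes in KO and 1 higher and 14 lower in WT, with Kif15, a spindle motor gene, at -0.51 in KO and -0.70 in WT. Of 36 other S phase genes 0 were higher and 10 lower in KO, and 1 was higher and 13 lower in WT. Of all genes tested, 8.49% were called higher and 5.74% lower in KO, and 10.5% higher and 8.3% lower in WT.

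Whether the cytokine responses differed between genotypes was tested as a difference of fold changes, KO minus WT, which uses the same libraries as the comparisons above. For TGFB1 0 of the 49 genes were called by edgeR, where 3.3% of all genes tested (387 of 11718) were called in either direction, and 7 had an unadjusted p below 0.05, against 2679 of all 11718 genes. The smallest adjusted p belonged to Cdc6, with a difference of 0.33 ± 0.10 (SE, adjusted p = 0.0539), since its log2 response was 0.07 in KO and -0.27 in WT. Birc5 had -0.41 ± 0.12 (SE, adjusted p = 0.0562), with responses of -0.15 in KO and 0.26 in WT. Ccnb2 had -0.54 ± 0.19 (SE, adjusted p = 0.0921), with -0.05 in KO and 0.49 in WT. Cdkn1a had 0.97 ± 0.36 (SE, adjusted p = 0.116), with 0.47 in KO and -0.50 in WT. DESeq2 called 2 genes, Cdc6 and Birc5, and limma-voom 1, Cdc6. With the sample number as a replicate block, Cdc6, Ccnb2, Birc5, Cdkn1a and Cdkn2c were called. The labels do not tie these numbers to animals. Without WT library 62 with TGFB1, 9 were called: Cdc6 (0.40), Ccne1 (0.32) and Cdkn1a (1.44) with a higher response in KO, and Ccnb2 (-0.67), Ccna2, Birc5, Bub1b, Cdc20 and Ube2c with a lower one. Without KO library 73 with TGFB1, 4 were called (Cdc6, Ccnb2, Birc5 and Cdc20), and without WT library 71 free of cytokine or WT library 72 with TGFB1 only Birc5 (-0.47) was. The shares of all genes called in these alternative fits are not given here, so these counts are not set against them. For IL12 0 of the 49 genes were called, and 0 of all genes tested (0%). None of the 49 had an unadjusted p below 0.05, against 513 of all 11718 genes, and the members' differences ran from -0.16 to 0.23 on the log2 scale, with SEs up to 0.49.

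Some members share exons with other annotated genes in GENCODE vM21, and the strand setting of the counting is not given in the sources used here, so reads cannot be assigned with certainty. This holds for Mcm7 (Cops6, Ap4m1, Mir25 and Mir93), Gins2 (Gse1), Cdc45 (Ufd1), Ccna2 (Exosc9), Cdc20 (Elovl1), Nusap1 (Oip5), Kif20a (Cdc23), Ube2c (Tnnc2), Ccnd3 (Bysl) and Ccne2 (Ints8). Slbp, Top2a, Plk1, Ccnd2 and Cdkn1a overlap predicted or antisense entries. Pcna, Ccnb1, Ccnb2, Ccnd3 and Tyms have named pseudogene copies in the annotation, and over all 30 libraries these held 601 counts (Pcna-ps2) or 50 and fewer.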

How the data were processed

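RNA of 30 libraries was sequenced after poly(A) purification with a directional kit, per the labels' protocols. The authors deposited 1 table of raw counts per Ensembl gene, whole numbers for all 30 libraries. The tools, per the submitters' processing notes, were STAR, Trim Galore, FastQC and DESeq2 1.24.0, on the GRCm38 build. Not given in the sources used here: the counter, its strand setting and the annotation. Symbols, exonic lengths and positions came from GENCODE vM21 (GRCm38) and promoter windows from RefSeq (GRCm38.p6).

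Here, R 4.3.3 with edgeR 4.0.16 kept genes by filterByExpr (minimum count 10), which left 11718 genes with 99.88% of the counts, scaled libraries by TMM, and fitted 1 quasi-likelihood model with a mean per group to all 30 libraries. Tests were two-sided, p values were Benjamini-Hochberg adjusted over all genes tested, and a gene was called below 0.05. Fold changes are log2 values with SE. The biological coefficient of variation was 14.3%. Alternatives used limma 3.58.1 and DESeq2 1.42.0. The members, lists and alternatives were chosen with earlier results of these data known. Named with full statistics were up to 4 called members per list and comparison with the largest fold change, and 14 key members are given by library.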

Additional observations from a re-analysis of the deposited data

Results flagged for a closer look

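The 14 key members and the 3 summed lists were checked in each of the 6 groups of 5 for a library far from the others, 102 sets of values in all. In 1 set, the lowest library stood apart: Pcna in KO libraries without cytokine had 631.5 CPM in library 70, against 667.8 to 680.9 CPM in the other 4. The gap to the nearest library was 0.735 of the whole range, above Dixon's critical value of 0.71 for 5 samples. Chance flags about 1 in 20 such sets. Why this library was low was not tested.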

How the results depend on the processing

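The counts of called members are 1 (KO against WT without cytokine), 17 (with TGFB1), 3 (with IL12), 4 (TGFB1 in KO), 16 (TGFB1 in WT), 9 (IL12 in KO), 18 (IL12 in WT), 0 (TGFB1 difference) and 0 (IL12 difference). With the compared groups fitted alone they were 5 for KO against WT without cytokine, 9 with TGFB1, 0 with IL12, 12 for TGFB1 in KO and 20 for IL12 in KO. Without the filter on low counts, 1 was called for KO against WT with IL12 and 5 for IL12 in KO. With a trend in gene length removed, 9 were called for TGFB1 in KO, 22 for IL12 in KO and 1 for the TGFB1 difference. Over genes tested, log2 fold change and exonic length had a Spearman rho of 0.0369, 0.105 and 2.38e-05 in these comparisons. It was -0.123 for IL12 in WT, and was largest for KO against WT with IL12 (0.281) and the IL12 difference (0.312). The TGFB1 difference gave 1 with sex as a term, 1 with limma-voom and 2 with DESeq2. Without WT libraries 72 and 75 with IL12, chosen after the values were seen, KO against WT with IL12 gave 0 and IL12 in WT gave 2. With 1 library left out, counts ran from 0 to 2 (no cytokine), 10 to 24 (KO against WT with TGFB1), 0 to 5 (with IL12), 3 to 6 (TGFB1 in KO), 11 to 23 (TGFB1 in WT), 6 to 11 (IL12 in KO), 8 to 19 (IL12 in WT), 0 to 9 (TGFB1 difference) and 0 to 0 (IL12 difference). The cause of these changes was not tested. Size factors by RLE and a filter of 10 counts in 5 libraries moved no count of called members by over 1.5 times. A last tally covers the called genes named with full statistics, up to 4 per list and comparison with the largest fold change. Of their alternatives, 832 kept direction and call, 113 kept the direction but lost the call, and 0 reversed. Called genes with smaller fold changes, whose lost calls are given above, are not in this tally, and the alternatives reuse the same libraries.

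Samples of both cytokine conditions and none share numbers, which the labels do not tie to animals. Same-numbered libraries deviated together with a median correlation of 0.222 over 30 pairs (-0.034 to 0.43), 5 pairs were at or below 0.1, and 26 libraries correlated best with their own number. With the number as a replicate block, the counts were 1, 18 and 2 for KO against WT without cytokine, with TGFB1 and with IL12, 6 and 19 for TGFB1 in KO and WT, 16 and 25 for IL12 in KO and WT, 5 for the TGFB1 difference (Cdc6, Ccnb2, Birc5, Cdkn1a and Cdkn2c) and 0 for the IL12 difference. Nor are the shares of all genes called with this block given here. The member with the fewest raw counts in any library was Cenpf, with 104; what depth limits was not tested.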
